A study of Homo sapiens with 32 samples.

Results

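The comparison described here set degron-tagged cells treated with auxin against parental cells given the same auxin, both without stress. It used 8 of the 32 libraries of the series, 4 in each group, chosen by their labels alone. The cells were HCT116, an established line from a human colorectal carcinoma, and both groups carried OsTIR1, a plant receptor protein whose gene is switched on by doxycycline. In the tagged group both copies of IGF2BP3 were fused to mAID, a small degron that OsTIR1 and auxin together send to the proteasome. The parental group had no tag, so auxin has no degron to act on there. Each of the 8 wells was given doxycycline (200 ng/mL, 24 h), auxin (indole-3-acetic acid, IAA; 500 µM, 9 h), the vehicle DMSO in place of a stressor, and 4-thiouridine (s4U; 250 µM, 2 h). The times were counted back from collection. The same pair of lines with DMSO in place of auxin (4 libraries each), and both lines given 5 µg/mL tunicamycin for 5 h, were read beside it.

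IGF2BP3 belongs to a family of RNA-binding proteins that coat selected mRNAs in the cytoplasm and are known for keeping them from decay. It is made in embryos and in many carcinomas and is low in most adult tissues. Thiouridine fed to cells enters newly made RNA, and after alkylation it is read as C in place of T, so new and older transcripts can be told apart in 1 library (SLAM-seq). A transcript that decays faster holds a larger share of new molecules, and one that is made less holds fewer new molecules at an equal share.

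Several limits belong to this design. The tagged line is a separately derived line, and whether it is 1 clone is not given in the sources used here, so a difference between the lines with auxin holds the loss of IGF2BP3 and every other difference between the lines. The protein was not measured, so its loss with auxin, or a lower level before auxin, is not shown by these files. Each library came from 1 well of a 24-well plate, and nothing ties equal replicate numbers to a plate or a day. The p-values therefore measure the spread between wells.

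Reads in named genes came to between 2813925 and 3813685 in the tagged libraries and between 2866830 and 4222485 in the parental ones, over 12444 to 12583 genes and 12439 to 12708 genes. Labelled reads, those carrying T-to-C conversions, made up 12.1% ± 0.636 of a tagged library and 12.7% ± 0.562 of a parental one (SD, n = 4 each). The difference was -0.674 percentage points (exact two-sided permutation test, p = 0.1714, where 4 against 4 allows no p below 0.0286). By replicate number the percentages were 12.5, 11.4, 12.7 and 11.7 in tagged and 13.1, 12.2, 13.3 and 12.3 in parental libraries, so the tagged library was lower at 4 of 4 numbers. Paired by number, the exact sign-flip test gave p = 0.125, the smallest that 4 pairs allow. Within groups, 1 axis held 45.46% of the variance of 7114 genes, and it went with the count of T bases that a read covers (Pearson r 0.8892 over the 16 unstressed libraries, deviations from group means). That count averaged 23.2 in tagged and 22.9 in parental libraries (exact permutation test, p = 0.5714). Markers of colon carcinoma epithelium were present (8 of 8 passed the filter on low counts), while 1 of 9 fibroblast markers, 1 of 10 leukocyte markers and 0 of 6 endothelial markers passed it.

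The mRNA of IGF2BP3 itself (chr7:23310209-23470491, GRCh38) did not differ between the lines beyond the spread of the wells. Its CPM values (reads scaled to the library's total in named genes) were 173, 133, 166 and 138 in tagged cells, against 155, 153, 138 and 143 in parental cells. The groups overlap, and the log2 difference was 0.05 ± 0.09 (standard error; edgeR adjusted p = 0.893). A degron acts on the protein, so the mRNA says nothing of depletion. IGF2BP2 (chr3:185643130-185825042), the paralogue also made in these cells, stood at 307 ± 15 CPM in tagged and 307 ± 18.1 CPM in parental cells (SD, n = 4 each). IGF2BP1, the remaining family member, was near the limit of detection at 1.16 ± 0.834 and 1.07 ± 0.859 CPM and was not tested.

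Of 10946 genes tested for total reads, 106 differed between the lines with auxin (0.968% of the genes tested; edgeR quasi-likelihood test, Benjamini-Hochberg adjusted p under 0.05). Tagged cells had 38 genes higher (0.347%) and 68 lower (0.621%). An unadjusted p under 0.05 was reached by 1459 genes (13.3%). The count moved with the fit: DESeq2 called 168, a fit of all 32 libraries 36, and a fit with the axis described above as a covariate 863, which include the 106. The axis was taken from the residuals of these same counts, so entering it lowers the residual spread by construction. The 863 are therefore not read as further differences between the lines. In 104 of the 106 the 4 tagged libraries lay all above or all below the 4 parental ones, a separation that 1051 genes showed over the whole table (9.6%). Such a separation was required of genes named below for their size in total reads, labelled reads or shares. It is therefore no added support for those genes. Below, "called" means an adjusted p under 0.05. Log2 differences are tagged minus parental, so a positive value means higher in tagged cells. In bulk RNA, fewer cells of a kind and less RNA per cell cannot be told apart.

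**Figure D1:**
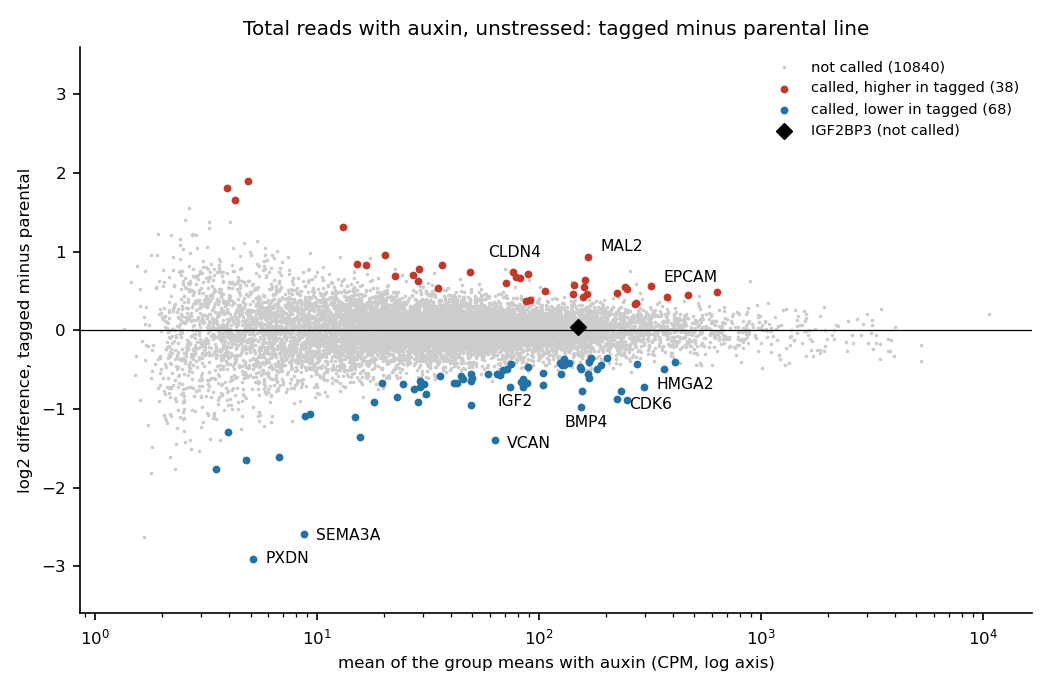
Log2 difference in total reads, tagged minus parental, both with auxin (vertical axis), against the mean of the group means in CPM (horizontal axis, logarithmic), 1 point for each of the 10946 genes tested. The 38 genes called higher in tagged cells and the 68 called lower are coloured, and PXDN and SEMA3A lie farthest down at -2.90 and -2.59.

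Among 26 tested mRNAs that have been reported as targets of IGF2BP proteins, 3 fell (CDK6, HMGA2 and IGF2) and 0 rose, against 0.621% and 0.347% of all genes. The median log2 difference of the 26 was 0.02, against 0.00 over all genes, so the list as a whole did not sit lower. MYC, ACTB and CD44, reported targets too, were not called, at -0.14 (adjusted p = 0.870), -0.09 (0.708) and 0.25 (0.150).

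HMGA2 (chr12:65824460-65966291), an architectural chromatin protein of embryos and carcinomas and a textbook target of the let-7 miRNAs, stood at 230, 221, 209 and 240 CPM in tagged cells. In parental cells it stood at 363, 377, 336 and 405 CPM. Each tagged library was below each parental one, with a log2 difference of -0.72 ± 0.08 (edgeR adjusted p = 1.4e-05). Its labelled reads differed less, at 705 ± 57.8 labelled CPM in tagged and 845 ± 92.8 in parental cells (SD, n = 4 each; log2 difference -0.26 ± 0.11, edgeR adjusted p = 0.471). The labelled share of its reads was therefore higher in tagged cells, at 39.8%, 31.6%, 38.4% and 35.9%, against 29.0%, 27.1%, 27.7% and 28.1% in parental cells. The lowest tagged library was above the highest parental one. Relative to the typical gene, the ratio of labelled to other reads was higher by 0.66 ± 0.11 on the log2 scale (edgeR adjusted p = 0.000181). Log2 differences given for shares here and below are of this ratio, which changes more than the share itself. Without centring on the typical gene the adjusted p was 0.245. Of 29 other settings tried, 28 kept the call.

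The sites that let-7 pairs with are shown because HMGA2 is the reported target whose labelled share was called. The 3 let-7 miRNAs printed first are RefSeq's mature sequences (GRCh38.p14), with the seed, bases 2 to 8, in capitals. The 8 mature sequences there with names from let-7a to let-7i have this seed, and other names were not searched.
hsa-let-7a-5p: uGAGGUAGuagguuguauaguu
hsa-let-7b-5p: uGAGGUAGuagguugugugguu
hsa-let-7i-5p: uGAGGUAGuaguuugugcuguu
The region in which the authors counted HMGA2 reads (2999 bases, matched by length to the end of a GENCODE transcript with a T content that differs by 1 base) holds CTACCTC, the reverse complement of that seed, 4 times. Capitals mark it.
HMGA2 site at base 17 of the region: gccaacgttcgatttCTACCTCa
HMGA2 site at base 1252: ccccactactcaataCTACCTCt
HMGA2 site at base 1664: ttgacttgcaaagacCTACCTCc
HMGA2 site at base 2517: aatcaaaacacactaCTACCTCt
Of 1416 counted regions of 2000 to 4000 bases that could be matched, 14.62% held at least 1 such match on the transcript's strand, and 2 held 4 or more, HMGA2 among them. The counted region of IGF2 (3870 bases) held 0. Regions were matched for 60.98% of the tested genes, too few to compare sites over all genes. The levels of the miRNAs were not measured, and a match is a description of letters.

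CDK6 (chr7:92604921-92836573), the cyclin D-dependent kinase that drives entry into S phase, was lower in total and in labelled reads. It stood at 147, 172, 165 and 148 CPM in tagged cells and at 323, 262, 301 and 271 CPM in parental cells. The groups were far apart, with a log2 difference of -0.87 ± 0.09 (edgeR adjusted p = 3.84e-06). Its labelled reads fell as far, to 186 ± 27.2 labelled CPM in tagged cells against 348 ± 31 in parental cells (log2 difference -0.90 ± 0.15, edgeR adjusted p = 9.49e-05). The labelled share was 13.7% ± 1.69 in tagged and 14.8% ± 0.543 in parental cells (SD, n = 4 each), a log2 difference of -0.02 ± 0.15 (edgeR adjusted p = 0.991). So the share of HMGA2 was called and that of CDK6 was not, although both had less total RNA; the difference between the genes was not tested.

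IGF2 (chr11:2129117-2149566), a fetal growth factor whose mRNA gave the family its name, stood at 94.9, 59.3, 79.2 and 84.6 CPM in tagged cells. Parental cells had 144, 134, 120 and 115 CPM, all above the tagged values, and the log2 difference was -0.69 ± 0.12 (edgeR adjusted p = 0.00175). With vehicle no difference was detected, at 103 ± 7.87 CPM in tagged and 103 ± 8.59 CPM in parental cells (log2 difference 0.01 ± 0.12, edgeR adjusted p = 0.990). The levels with auxin thus lay on both sides of those with vehicle, lower in tagged and higher in parental cells. The difference between both comparisons was -0.70 ± 0.17 (edgeR adjusted p = 0.0713, unadjusted p = 0.000287), and 6 of 26 other settings called it. IGF2 shares exons with a readthrough gene, and counting cannot separate them. Its labelled reads were few, 12 to 27 per library with auxin, and its share was not called.

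**Figure D2:**
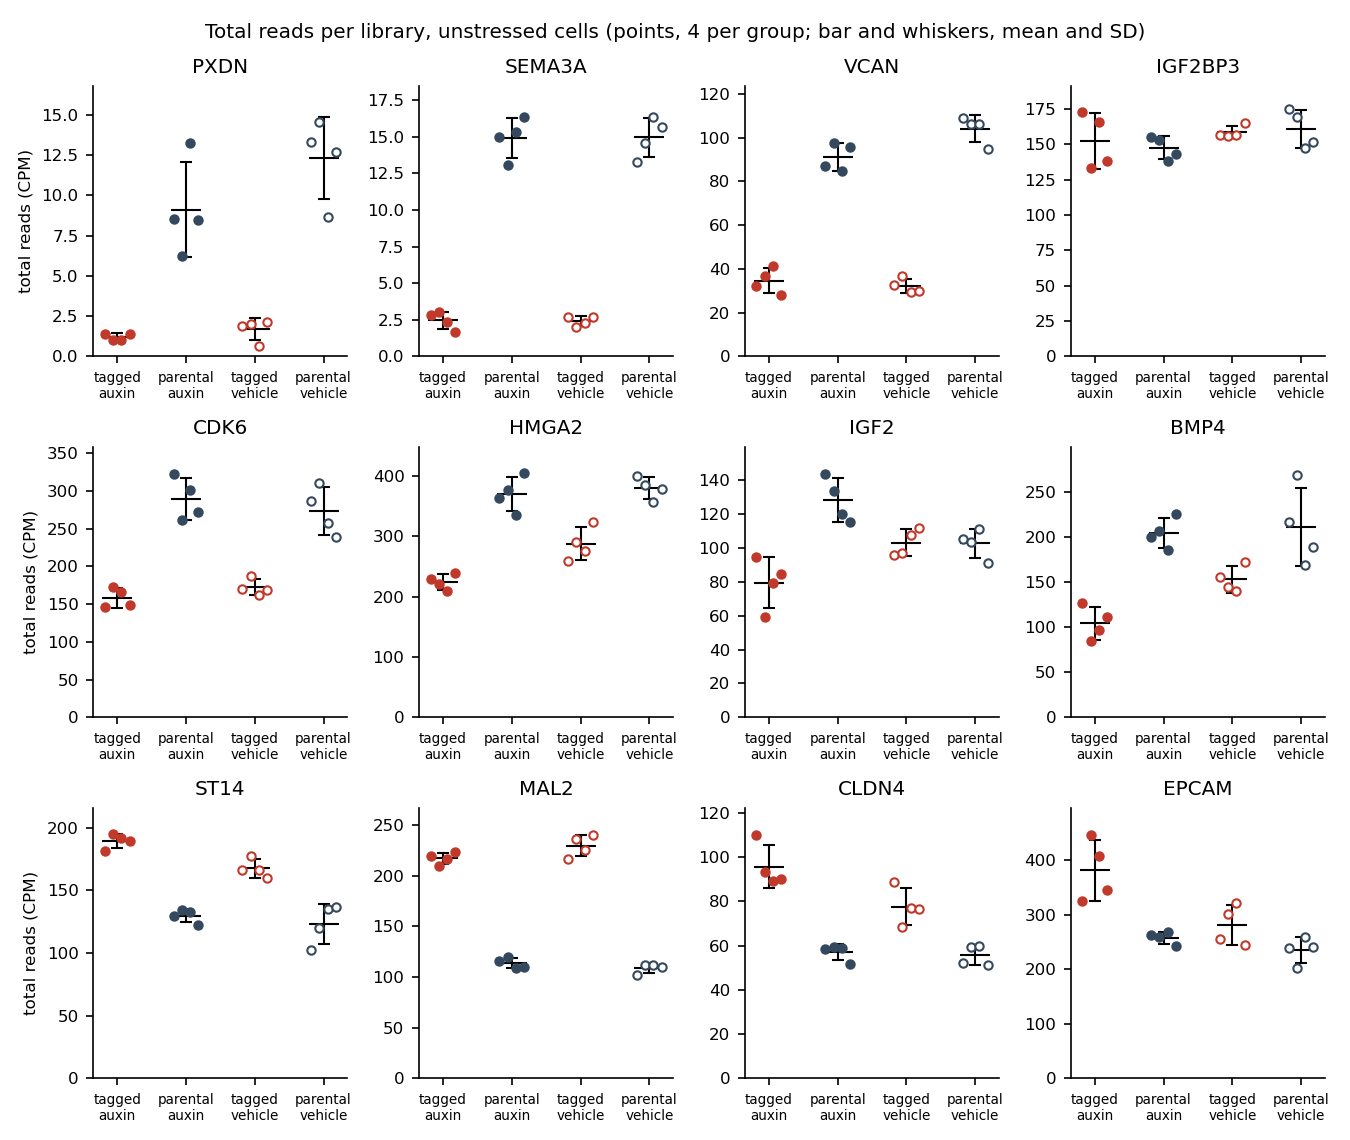
Total reads in CPM (linear axes from 0) of 12 genes in each library of 4 groups, tagged left of parental with auxin and then with vehicle; points are libraries and bars are means ± SD. IGF2BP3 overlaps between the lines, PXDN, SEMA3A and VCAN are low in both tagged groups, and IGF2 separates the lines with auxin (79.5 against 128 CPM) and not with vehicle (103 against 103 CPM).

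The 15 genes with the largest falls were taken at a mean of 5 CPM or more over the 8 libraries. Those of matrix and secreted proteins are given first. PXDN and SEMA3A reached that mean only through their parental libraries, so their place among the largest falls rests in part on that filter. PXDN (chr2:1631887-1744901), peroxidasin, which crosslinks collagen IV, had 1.4, 1.01, 0.994 and 1.41 CPM in tagged cells. It had 8.53, 6.2, 13.2 and 8.44 CPM in parental cells. These are low counts, and the log2 difference was -2.90 ± 0.37 (edgeR adjusted p = 4.28e-05). SEMA3A (chr7:83955777-84492725), a secreted guidance cue for axons, had 2.8, 3.02, 2.32 and 1.69 CPM in tagged cells and 15, 13.1, 15.3 and 16.3 CPM in parental cells. Its log2 difference was -2.59 ± 0.24 (edgeR adjusted p = 2.89e-07). It was the 1 called member of 28 tested adhesion and guidance genes, whose median was -0.14. VCAN (chr5:83471744-83582302), the large matrix proteoglycan versican, had 32.2, 36.7, 41.4 and 28.2 CPM in tagged cells and 86.9, 97.5, 84.9 and 96 CPM in parental cells. The highest tagged value was below the lowest parental one (log2 difference -1.40 ± 0.12, edgeR adjusted p = 5.56e-08). New VCAN RNA was scarcer still, with 3, 9, 4 and 5 labelled reads in tagged and 39, 31, 21 and 30 in parental libraries (log2 difference -2.30 ± 0.38, edgeR adjusted p = 9.45e-05). Its share was not called (edgeR adjusted p = 0.770).

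Signalling genes followed. BMP4 (chr14:53949736-53956891), a secreted ligand of the TGF-beta family, had 126, 84.2, 96.4 and 111 CPM in tagged cells, against 200, 207, 186 and 226 CPM in parental cells. No tagged library reached a parental one (log2 difference -0.97 ± 0.13, edgeR adjusted p = 0.000137). Its labelled reads fell by as much, at 260 ± 36.5 labelled CPM in tagged and 537 ± 40 in parental cells (log2 difference -1.05 ± 0.13, edgeR adjusted p = 1.29e-07). KISS1R (chr19:917333-921005), the kisspeptin receptor, averaged 8.75 CPM in tagged and 22.5 CPM in parental cells, and FGF9 (chr13:21671073-21704498), a secreted growth factor, 12.6 and 23.6 CPM. Their log2 differences were -1.36 ± 0.18 and -0.91 ± 0.19 (edgeR adjusted p = 0.000114 and 0.0149). PDLIM5 (chr4:94451942-94668223), a PDZ and LIM domain protein of the actin cytoskeleton, had 186, 175, 164 and 176 CPM in tagged cells and 318, 315, 332 and 329 CPM in parental cells. Its replicates spread little, and its log2 difference was -0.89 ± 0.09 (edgeR adjusted p = 2.08e-06). Others of the 15 were SYTL2 (-1.61), IL17RE (-1.11), ACP2 (-0.95), DENND5B (-0.91) and SESTD1 (-0.84), with edgeR adjusted p between 0.000729 and 0.0132.

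Surface and junction genes of epithelial cells were among those that rose. Of 37 tested epithelial genes 7 rose and 0 fell, against 0.347% of all genes called higher. The median log2 difference of the 37 was 0.21 and 32 of them were positive, against a median of 0.00 and 5569 of 10946 positive over all genes. MAL2 (chr8:119208363-119245673), which carries cargo across polarized epithelial cells, had 219, 210, 216 and 223 CPM in tagged cells and 116, 120, 109 and 110 CPM in parental cells. The groups were far apart, and its log2 difference was 0.93 ± 0.08 (edgeR adjusted p = 5.56e-08). CLDN4 (chr7:73830996-73832690), a tight junction claudin, had 110, 93.2, 89.5 and 90.3 CPM in tagged cells, against 58.3, 59.6, 59 and 51.5 CPM in parental cells. Again no library crossed over (log2 difference 0.75 ± 0.11, edgeR adjusted p = 0.000299).

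EPCAM (chr2:47369311-47387020), the epithelial adhesion molecule, had 325, 447, 408 and 346 CPM in tagged cells and 263, 259, 268 and 243 CPM in parental cells. The tagged libraries were all higher and more spread (log2 difference 0.56 ± 0.10, edgeR adjusted p = 0.00447). ESRP1, a splicing regulator of epithelial cells, ST14 (chr11:130159782-130210362), the membrane protease matriptase, and ELF3 (chr1:202010587-202017183), an epithelial ETS transcription factor, were called higher as well. Their log2 differences were 0.71 ± 0.13, 0.55 ± 0.09 and 0.85 ± 0.21 (edgeR adjusted p = 0.00447, 0.00132 and 0.0446), and the call of ELF3 held in 11 of 27 other settings. CDH1, E-cadherin, averaged 41.7 CPM in tagged and 25.2 CPM in parental cells and was not called (0.72 ± 0.25, edgeR adjusted p = 0.180). It was named after its values were seen. In a fit of all 32 libraries 4 of the 37 were called higher.

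Promoters of the called epithelial genes are shown where RefSeq's table has an entry, since the members moved together. These are ELF3 and CLDN4, both called higher with auxin. Each runs from 250 bases before the start of transcription to 50 bases after it (GRCh38.p14, plus strand). CACCTG, in capitals, is an E-box, the kind of letter pattern that ZEB and SNAIL repressors of epithelial genes are known to bind; CACCTG and its reverse complement CAGGTG were searched.
ELF3 promoter, chr1:202010337-202010636: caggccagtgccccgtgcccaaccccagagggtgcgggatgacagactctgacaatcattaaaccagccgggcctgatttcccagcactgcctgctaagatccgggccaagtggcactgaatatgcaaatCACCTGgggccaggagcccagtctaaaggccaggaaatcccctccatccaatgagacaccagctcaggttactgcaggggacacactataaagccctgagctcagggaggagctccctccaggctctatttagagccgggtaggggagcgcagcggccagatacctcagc
CLDN4 promoter, chr7:73830746-73831045: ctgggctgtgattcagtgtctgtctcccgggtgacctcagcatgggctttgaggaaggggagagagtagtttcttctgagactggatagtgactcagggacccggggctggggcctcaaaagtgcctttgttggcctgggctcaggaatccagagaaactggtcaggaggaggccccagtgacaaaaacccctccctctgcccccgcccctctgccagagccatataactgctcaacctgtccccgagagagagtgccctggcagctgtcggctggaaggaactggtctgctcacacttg
ELF3 has 1 match and CLDN4 has 0, and 18.24% of 9029 tested genes with an entry have at least 1. Binding to these letters was not tested. MAL2, ESRP1, EPCAM and ST14 are named only. Entries covered 17 of the 37 tested epithelial genes, so no count over the list is given.

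Genes that mark the mesenchymal state gave few calls. Of 22 tested, 0 rose and 1 fell, against 0.347% and 0.621% of all genes. The median was -0.16 and 6 were positive, against 0.00 and 5569 of 10946 over all genes. The 1 was S100A4 (chr1:153543621-153545806), a calcium-binding protein of motile cells, at 174 ± 29.2 CPM in tagged and 295 ± 10.6 CPM in parental cells (SD, n = 4 each; log2 difference -0.77 ± 0.10, edgeR adjusted p = 0.000107). VIM, vimentin, had 3.5, 3.02, 5.3 and 3.67 CPM in tagged cells and 12.7, 5.17, 8.31 and 7.88 CPM in parental cells, and was not called (-1.17 ± 0.31, edgeR adjusted p = 0.0804). ZEB1, a repressor of epithelial genes, averaged 2.20 and 4.63 CPM and was not called either (edgeR adjusted p = 0.199). VIM and ZEB1 were named after their values were seen, and the 6 positive members are not shown beside them.

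Other genes among the largest rises at a mean of 5 CPM or more over the 8 libraries follow. AP1M2 (chr19:10572671-10587312), a subunit of the epithelial AP-1 clathrin adaptor, had 60.8 ± 4.28 CPM in tagged and 36.3 ± 4.03 CPM in parental cells (log2 difference 0.74 ± 0.13, edgeR adjusted p = 0.0032). SCNN1A (chr12:6346847-6377359), a subunit of the epithelial sodium channel, had 33.6 ± 2.21 and 20.6 ± 1.37 CPM (0.70 ± 0.16, edgeR adjusted p = 0.0274). S100A14 (chr1:153614255-153616325), a calcium-binding protein of epithelia, had 195 ± 22.1 and 126 ± 17.2 CPM (0.64 ± 0.10, edgeR adjusted p = 0.000747). ADGRF1, an adhesion receptor, CRYBG1, MACC1, known for its link to metastasis of colon cancer, KLK6, a serine protease, ANKRD13A and SYTL3 had differences of 0.66 to 0.83, with adjusted p between 0.00547 and 0.0288. PCK2 (chr14:24094171-24104125), the mitochondrial phosphoenolpyruvate carboxykinase, had 29.8, 35.2, 16.2 and 25.1 CPM in tagged cells and 12, 15.2, 14.8 and 13.5 CPM in parental cells. Its lowest tagged library was close to the highest parental one (0.95 ± 0.22, edgeR adjusted p = 0.0352), and the call held in 18 of 27 other settings, the replicate block not among them. PCK2 was the 1 called member of 36 tested ATF4 targets, whose median was 0.02.

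**Figure D3:**
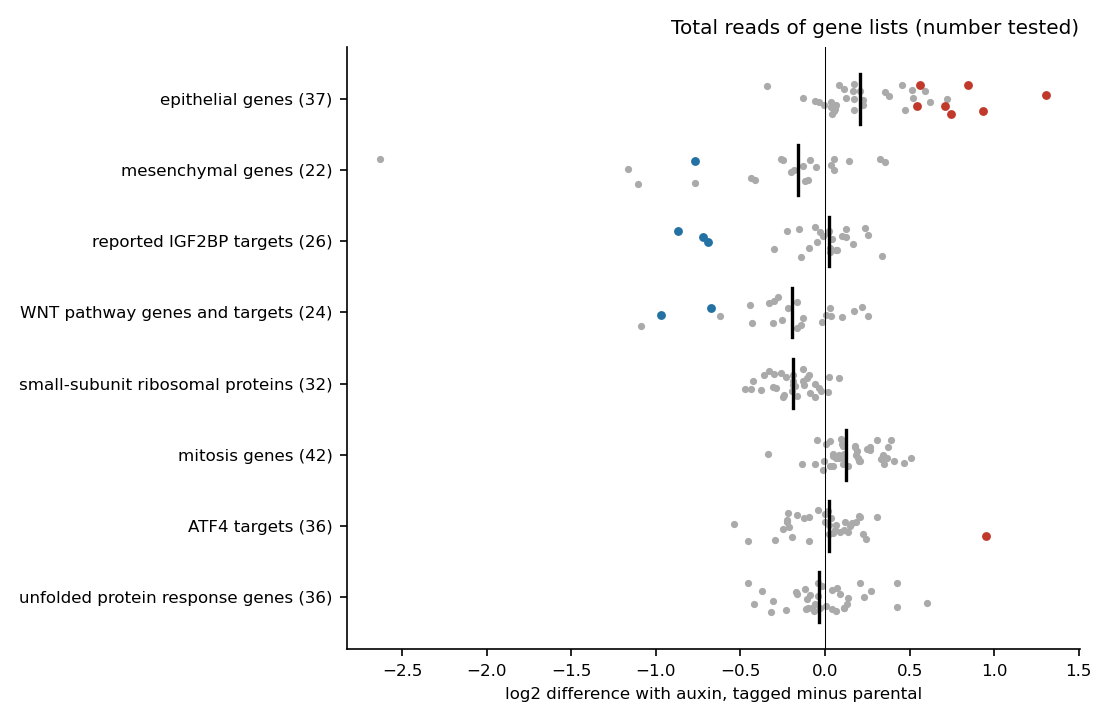
Log2 differences in total reads, tagged minus parental with auxin (horizontal axis), for the tested members of 8 gene lists; grey points were not called, red were called higher, blue were called lower, and the black line is the list's median. The epithelial list has 7 red points and a median of 0.21, and the reported IGF2BP targets have 3 blue points and a median of 0.02.

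Labelled reads gave fewer calls: 17 of 8531 genes (0.199%), 8 higher (0.0938%) and 9 lower (0.105%) in tagged cells, with an unadjusted p under 0.05 for 747. Scaled by total reads instead, 23 were called, 4 higher and 19 lower. S100A10 (chr1:151982915-151993859), the annexin A2 partner protein, had 213, 241, 184 and 219 labelled CPM in tagged cells, against 116, 90.8, 82.7 and 110 in parental cells. The groups did not overlap (log2 difference 1.10 ± 0.19, edgeR adjusted p = 0.000122). Its total reads rose less, at 539 ± 22 CPM in tagged and 393 ± 18.3 CPM in parental cells (0.45 ± 0.09, edgeR adjusted p = 0.00579). CLDN4, EPCAM and SYTL3, called in total reads, were higher in labelled reads too, by 1.00 ± 0.19, 0.70 ± 0.17 and 1.598 ± 0.27 (edgeR adjusted p = 0.00135, 0.0347 and 0.000122). TOP2A, the topoisomerase of dividing cells, ATG3, an autophagy enzyme, and FOSL1, an AP-1 transcription factor, were higher by 0.63, 1.13 and 0.55 (edgeR adjusted p = 0.0236, 0.0265 and 0.0347). SEPTIN10, described below, was the remaining gene that was higher. Of these, FOSL1 was also called in total reads.

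Labelled reads of NGRN (chr15:90265663-90272211), a factor of mitochondrial ribosome assembly, fell to 213 ± 30.7 labelled CPM in tagged cells, against 403 ± 64.4 in parental cells (SD, n = 4 each; log2 difference -0.92 ± 0.15, edgeR adjusted p = 9.45e-05). Those of HDAC7, a histone deacetylase, KHSRP, an RNA-binding protein of mRNA decay, RPS19, a ribosomal protein, and ID2, an inhibitor of transcription factors, fell by 0.63, 0.47, 0.67 and 0.44 on the log2 scale. Their edgeR adjusted p were 0.0236, 0.0236, 0.0347 and 0.0162. TRIM14 was called lower (edgeR adjusted p = 0.0150), although its highest tagged library, at 63.3 labelled CPM, was above its lowest parental one, at 56.5.

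The labelled share differed for 2 genes (0.0234% of 8531), both higher in tagged cells, while 491 genes had an unadjusted p under 0.05. HMGA2 is given above. SEPTIN10 (chr2:109542799-109613966), a cytoskeletal GTPase, had shares of 36.7%, 28.8%, 32.5% and 22.8% in tagged cells, against 9.86%, 17.7%, 12.1% and 12.6% in parental cells. The groups did not overlap (log2 difference in the ratio of labelled to other reads 1.66 ± 0.28, edgeR adjusted p = 0.000371). These shares rest on 40, 75, 51 and 41 labelled reads in tagged and 21, 23, 25 and 17 in parental libraries. Its total reads overlapped between the lines, at 51.6 ± 11.1 CPM in tagged and 46.4 ± 6.7 CPM in parental cells (edgeR adjusted p = 0.773). For SEPTIN10 the labelled reads were called and the total was not, and for HMGA2 the total was called and the labelled reads were not. Every library had received s4U, so the conversions that occur without it were not measured, and a share includes them.

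**Figure D4:**
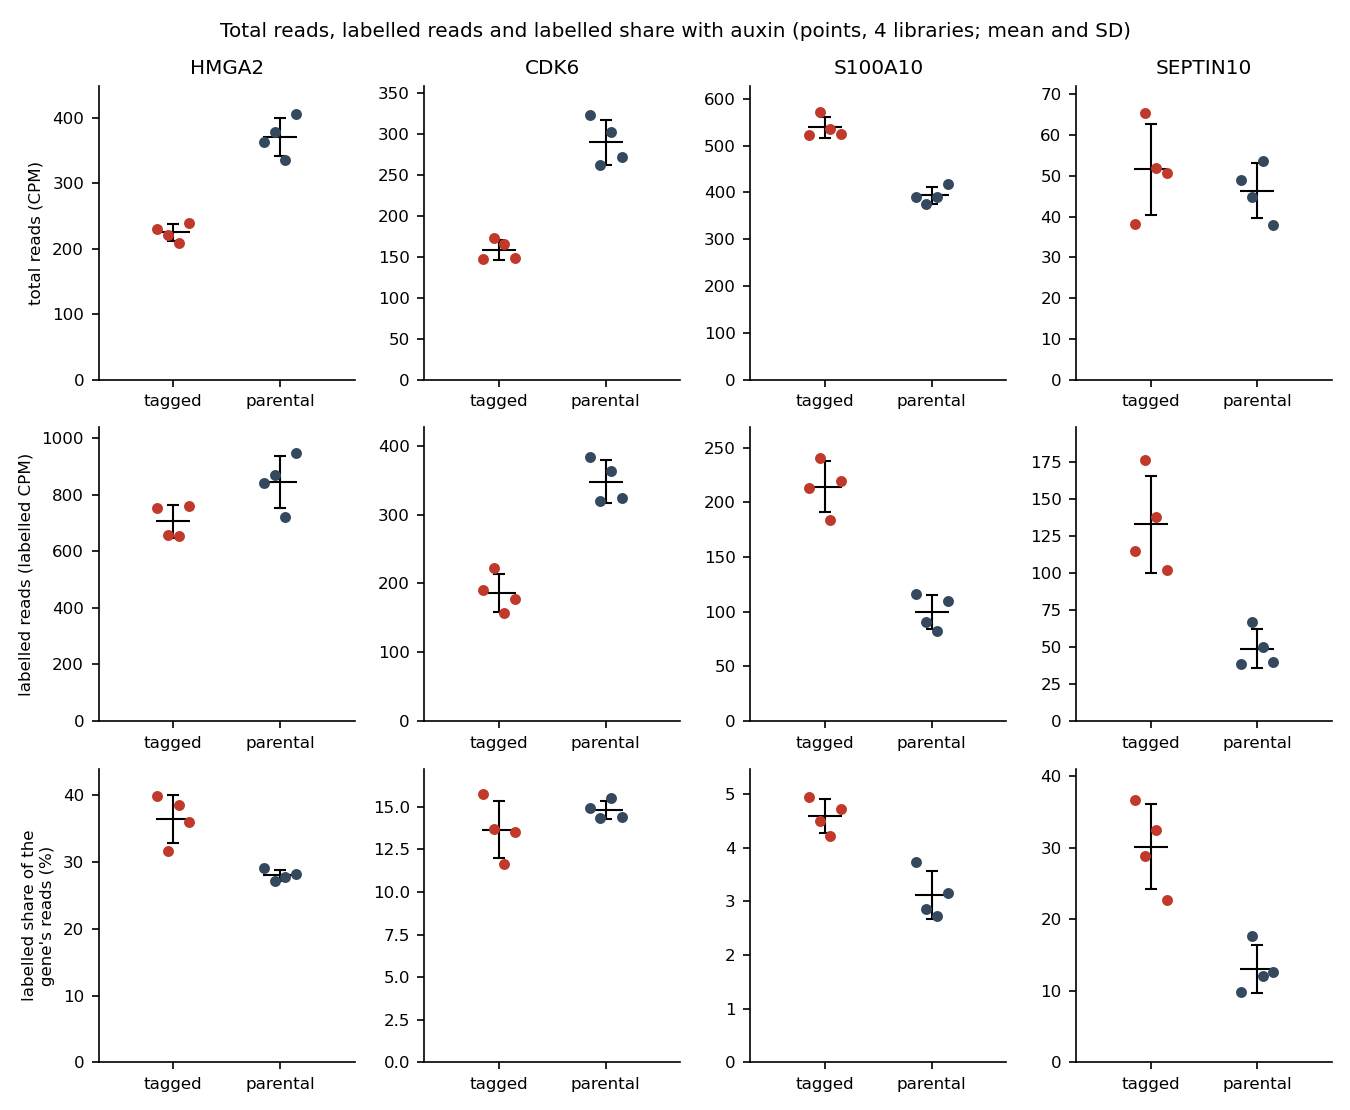
Total CPM, labelled CPM and labelled share in percent (rows, axes from 0) of HMGA2, CDK6, S100A10 and SEPTIN10 in the 8 libraries with auxin, tagged left of parental; points are libraries and bars are means ± SD. The share of HMGA2 is higher in tagged cells (36.4% against 28.0%) at a lower total, and the share of CDK6 overlaps (13.7% against 14.8%).

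The same pair of lines was also compared with vehicle in place of auxin. With vehicle 73 of 10946 genes were called (0.667%), 40 higher (0.365%) and 33 lower (0.301%) in tagged cells. Both comparisons called 29 genes in 1 direction and 1 gene, SH2B1, in opposite directions. Together they are 28.3% of the auxin calls and 41.1% of the vehicle calls, and the comparisons use different libraries. Of the 38 genes higher with auxin 31 were also positive with vehicle, with a median log2 difference of 0.22 against 0.61 with auxin. Of the 68 lower genes 47 were also negative, with a median of -0.32 against -0.65. These genes were selected by their difference with auxin, which by itself makes medians in other libraries smaller. The medians therefore do not show that the lines differ more with auxin. PXDN, SEMA3A and VCAN differed as much with vehicle, by -2.83, -2.61 and -1.70 (edgeR adjusted p = 2.43e-05, 3.43e-07 and 2.12e-09). So did MAL2, by 1.07 ± 0.08 (edgeR adjusted p = 2.12e-09), and S100A4, by -0.73 ± 0.10 (edgeR adjusted p = 0.000231).

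The epithelial list was as high without auxin, with 7 of 37 called higher, 0 lower and a median of 0.36. MAL2, CLDN4 and ST14 were called in both comparisons, while EPCAM was called with auxin (0.56) and not with vehicle (0.25, edgeR adjusted p = 0.327); its difference between both was 0.31 ± 0.15 (edgeR adjusted p = 0.477). CDK6 was lower with vehicle too, at 172 ± 10.7 CPM in tagged and 273 ± 31.5 CPM in parental cells (-0.66 ± 0.09, edgeR adjusted p = 0.000295). HMGA2 stood at 288 ± 27.3 CPM in tagged and 380 ± 18.5 CPM in parental cells with vehicle (-0.40 ± 0.08, edgeR adjusted p = 0.0225). Its total difference with auxin was larger by -0.32 ± 0.12, which did not pass adjustment (edgeR adjusted p = 0.341, unadjusted p = 0.0129). Its share with vehicle was 30.8% ± 1.58 in tagged and 29.3% ± 2.59 in parental cells (SD, n = 4 each; log2 difference 0.17 ± 0.11, edgeR adjusted p = 0.883). The difference of the shares between both comparisons was 0.50 ± 0.15 (edgeR adjusted p = 0.826, unadjusted p = 0.0015). The larger line difference in the share of HMGA2 with auxin than with vehicle therefore did not pass adjustment over all genes. SEPTIN10 had shares of 29.5% ± 4.41 in tagged and 14.7% ± 3.8 in parental cells with vehicle, nearly those with auxin. With vehicle, labelled reads were called for 2 genes (0.0234%), NGRN and CDK6, and the share for 1 (0.0117%), NGRN, by -1.07 (edgeR adjusted p = 0.00048).

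**Figure D5:**
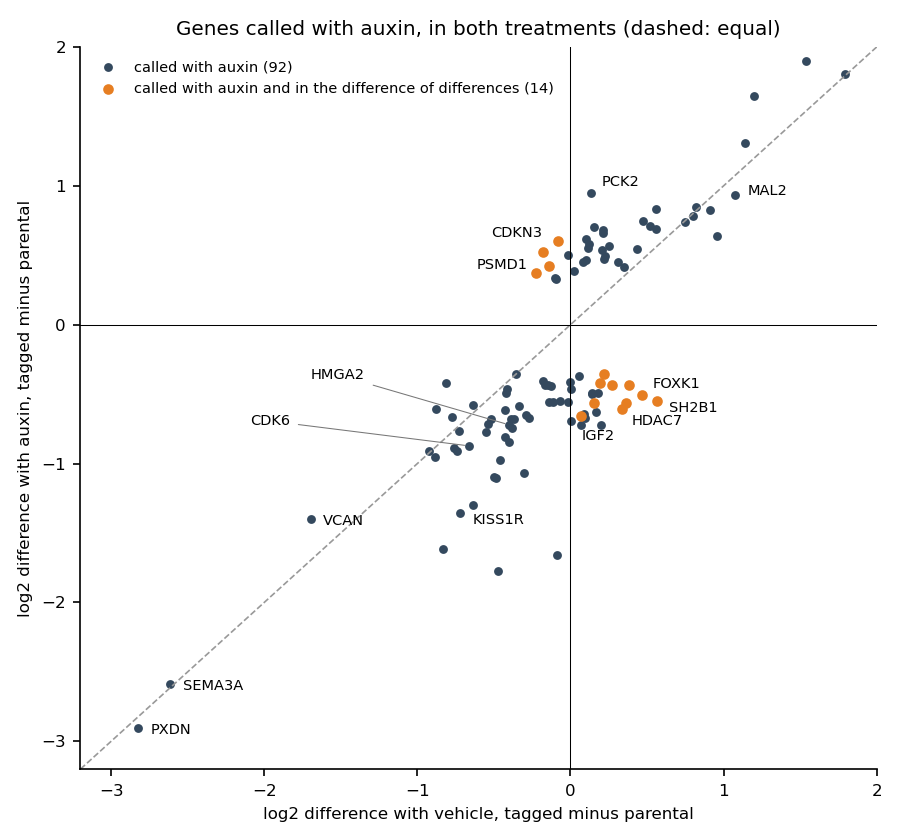
Log2 differences in total reads, tagged minus parental, with auxin (vertical axis) and with vehicle (horizontal axis) for the 106 genes called with auxin; the dashed line marks equal values, and orange marks the 14 whose difference between both comparisons was called. PXDN, SEMA3A and VCAN lie near the line, and SH2B1 lies at -0.55 with auxin and 0.56 with vehicle.

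The line difference with auxin departed from that with vehicle for 34 of 10946 genes (0.311%), 8 upward (0.0731%) and 26 downward (0.238%), with an unadjusted p under 0.05 for 1110. Of the 106 genes called with auxin 14 were among them, 10 lower and 4 higher with auxin. SH2B1 (chr16:28846606-28874205), a signalling adaptor, had 52.5, 39.2, 47.4 and 50.8 CPM in tagged and 71.9, 73.1, 63.9 and 69 CPM in parental cells with auxin. With vehicle it had 68.1, 70.4, 67.3 and 72.1 CPM in tagged and 50.6, 53.9, 41.4 and 43 CPM in parental cells. The order of the lines turned over, without overlap in either treatment (difference of differences -1.11 ± 0.16, edgeR adjusted p = 0.00386). FOXK1 (chr7:4682295-4771442), a forkhead transcription factor (-0.97 ± 0.16, edgeR adjusted p = 0.0108) and HDAC7 (-0.94, 0.0217) had the same pattern of signs. ATG2A, a lipid-transfer protein of autophagy (-1.17, 0.0293), SEL1L3 (-1.002, 0.0217) and SLC39A4, a zinc importer (-0.94, 0.0311), were not called with auxin by itself.

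PSMD1 (chr2:231056867-231172827), a proteasome subunit, went upward. It had 302, 309, 291 and 275 CPM in tagged and 183, 205, 199 and 233 CPM in parental cells with auxin, and averaged 242 and 274 CPM with vehicle (difference of differences 0.70 ± 0.12, edgeR adjusted p = 0.0108). CDKN3 (chr14:54397007-54420218), a phosphatase of cyclin-dependent kinases, had 85.5 ± 5.54 CPM in tagged and 56.4 ± 2.91 CPM in parental cells with auxin, and 77.4 and 82.0 CPM with vehicle (0.68 ± 0.14, edgeR adjusted p = 0.0311). PDCD6, ERLEC1, COPS5 and PMPCA had differences of 0.59 to 0.88. Of these, PDCD6, ERLEC1 and PMPCA were not called with auxin by itself. The call of the difference held in 15 of 25 other settings for ERLEC1 and 12 of 25 for PMPCA. For CDKN3 and PDCD6 it held in 16 and 23 of 26. COPS5, the catalytic subunit of the COP9 signalosome that acts on cullin ligases, was the 1 called of 11 genes whose products work with OsTIR1-type receptors in human cells (0.37 with auxin, edgeR adjusted p = 0.0468; 0.968% of all genes were called). Its call with auxin held in 10 of 27 other settings and that of the difference in 9 of 26, and both were lost with the replicate block. For CDKN3 and SH2B1 the parental level itself differed between auxin and vehicle, 56.4 against 82.0 CPM and 69.5 against 47.2 CPM. So did that of PSMD1, at 183 to 233 CPM with auxin against an average of 274 CPM with vehicle. Auxin against vehicle within a line was not tested. Of the 12 genes of this kind that are named here, SH2B1 and FOXK1 were called in all 26 other settings. No gene was called for the same difference in labelled reads or in shares by edgeR (0 of 8531 each, with 605 and 434 at an unadjusted p under 0.05), nor by DESeq2.

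Stressed cells of the same lines, also with auxin, came from other wells. With all 16 stressed libraries 14 of 10996 genes were called (0.127%), and without the smallest library, parental replicate 1 with 987218 reads, 68 of 11098 (0.613%). Without that library 37 of the 38 genes higher in unstressed tagged cells were positive (15 called) and 67 of the 68 lower genes were negative (20 called). With it the counts were 38 (3 called) and 62 (8 called). Median differences without it were 0.44 and -0.39, for genes selected in the unstressed libraries. HMGA2, CDK6 and IGF2 were lower in stressed tagged cells without that library, by -0.71, -0.90 and -0.66 (edgeR adjusted p = 8.93e-07, 3.35e-07 and 0.000291). With all libraries the differences were -0.68, -1.17 and -1.21 (edgeR adjusted p = 0.00548, 0.0175 and 0.185), so IGF2 was not called. Without that library the share of HMGA2 differed by 0.55 ± 0.12 (edgeR adjusted p = 0.0540; 0.59 and 0.0215 with all libraries) and that of SEPTIN10 by 1.45 ± 0.30 (edgeR adjusted p = 0.0156), 1 of the 3 shares called there (0.0354% of 8468 genes; 5 and 0.062% with all libraries). The epithelial list had 9 of its tested members called higher and a median of 0.34 without that library (0.288% of all genes were called higher), and 1 called higher and a median of 0.43 with it (0.0364%). SH2B1, FOXK1 and PSMD1 were not called in either fit, at -0.33, -0.07 and 0.09 without that library. In stressed cells with vehicle, 30 of the 38 and 43 of the 68 had the same sign in both fits. In the fit without that library 15 of the 38 and 15 of the 68 were called there in the same direction, and 1 and 6 in the opposite one, beside 5.89% of all genes called. With all libraries 2 and 2 were called in the same direction and 0 in the opposite one, beside 0.0637% of all genes.

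Other pathways gave few calls at most, read against 0.968% of all genes called in either direction. Small-subunit ribosomal protein mRNAs had 0 of 32 called and a median of -0.19, with 3 positive; with vehicle the median was -0.14. Mitosis genes had 0 of 42 called, a median of 0.12 and 36 positive, and DNA replication genes 0 of 47 and 0.08. Genes of the WNT pathway had 2 of 24 called, BMP4 and SOX9, a transcription factor of intestinal crypts (-0.68, edgeR adjusted p = 0.0292), and a median of -0.19. The unfolded protein response had 0 of 36 called and a median of -0.03, and cholesterol synthesis 0 of 26 and 0.05. NQO1, a detoxifying reductase, was the 1 called of 24 NRF2 targets and of 10 targets of the aryl hydrocarbon receptor (0.42, edgeR adjusted p = 0.00868). RPS27L was the 1 of 29 p53 targets (0.45, 0.00251), and IFITM2, an antiviral membrane protein, the 1 of 37 interferon-stimulated genes (-0.77, 0.000555). Immediate-early genes had FOSL1 higher and NR4A2 and DUSP6 lower among 32. LSM3, of the mRNA decay machinery, was the 1 of 52 (0.33, 0.0433), and m6A writers, erasers and readers had 0 of 19 called. The calls of LSM3 and NR4A2 held in 13 and 10 of 27 other settings and were lost with the replicate block.

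The share of tested genes called lay between 0 (chromosomes 18 and 22) and 1.80% (chromosome 2, 13 of 721), which was not tested. Chromosome medians of the log2 difference lay between -0.05 and 0.04, and medians of 25 neighbouring tested genes between -0.23 and 0.20 over 10394 windows. One of 3 overlapping windows at the lowest value, on chromosome 19 from MEIS3 to RASIP1 (47403124 to 48720585), had a median of -0.23 with auxin and 0.07 with vehicle. The genes that rose had counted regions of 727 bases in median and those that fell 1385 bases, against 1119 bases over all genes. In vehicle-treated parental cells 10.3% of the reads of the genes that rose were labelled in median, 15.6% for those that fell and 17.8% for all genes. The called genes were also more abundant, with median CPM of 88.2 for those that rose and 69.8 for those that fell, against 35.3 over all genes. The part of abundance in these medians was not tested. Across all genes the log2 difference increased weakly with covered T per read (Spearman rho 0.20 with auxin and 0.24 with vehicle, 10946 genes, which share libraries and are not replicates). This is the quantity that the axis within groups followed, and its part in single genes was not tested.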

How the data were processed

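SLAM-seq 3′-end libraries of 32 wells in 8 groups of 4 were used, 8 of them for the comparison itself. Per the file headers, the authors' tables are per-transcript counts of reads, labelled reads, covered T positions and conversions in the layout of Slamdunk. Region length and T content are deposited beside these counts. Genome hg38 comes from the submitters' processing notes. The software version, conversion threshold, strand setting and annotation are not given in the sources used here.

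Transcript IDs were matched to gene names with the reference tables (40002 of 40767 NM and 6326 of 33066 XM IDs), and reads of unnamed transcripts (36.9% to 38.0% in these 8 libraries) stayed out of library sizes. For each gene 1 transcript was used, and 72 genes with counts identical to another's were dropped. edgeR 4.0.16 was run once on total and once on labelled reads (quasi-likelihood, robust, TMM, filter on low counts), over the 16 unstressed libraries in 4 groups, which share 1 estimate of the spread. The labelled share was tested as labelled against other reads with a term for each library, so it is relative to the typical gene. Its log2 differences are of the ratio of labelled to other reads. Stressed libraries were fitted separately. Percentages over whole libraries were compared by exact permutation tests. limma 3.58.1 and DESeq2 1.42.0 under R 4.3.3 served as alternatives. On simulated data with known changes of 0.5 and 1 (log2), 44% and 90% of changed genes were recovered for total reads (10852 genes). For the share 27.1% and 76.8% were recovered (8437 genes), and false calls numbered 6 and 4. Genes were simulated independently, without the axis within groups and without added spread of the share between wells. The changed genes all passed the filter in labelled reads too, so recovery in the real data may be lower.

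Named genes are the 15 largest called differences each way without overlap between groups, at a mean of 5 CPM or more over the 8 libraries. Up to 8 each way were added for labelled reads and shares. Up to 6 each way were added for the difference between auxin and vehicle, and up to 4 called members of each list. Other list members were named after their values were seen. The comparison and the gene lists were chosen with earlier results of these data known. Some named genes are not reported here.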

Additional observations from a re-analysis of the deposited data

Results flagged for a closer look

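Of the 34 genes whose line difference in total reads with auxin departed from that with vehicle (edgeR, 8 upward and 26 downward), the 6 taken each way by the naming rule are given, as differences of differences on the log2 scale. It was negative for ATG2A (-1.17), SH2B1 (-1.11), SEL1L3 (-1.002), FOXK1 (-0.97), SLC39A4 (-0.94) and HDAC7 (-0.94). It was positive for ERLEC1 (0.88), PSMD1 (0.70), PDCD6 (0.70), CDKN3 (0.68), COPS5 (0.60) and PMPCA (0.59).

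In 6 of 148 groups of 4 libraries a single value stood far from the other three, where chance gives about 1 in 20. With auxin, tagged replicate 2 was the highest for AP1M2 (67.1 CPM) and ELF3 (21.9 CPM) and the lowest for RPS19 (562 CPM). Tagged replicate 3 was the highest for COPS5 (107 CPM), tagged replicate 4 the lowest for SEL1L3 (91.4 CPM), and parental replicate 4 the lowest for CLDN4 (51.5 CPM).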

How the results depend on the processing

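Of the named genes called with auxin, 17 of 50 in total reads, 4 of 12 in labelled reads and 1 of 2 in shares were called under every alternative run for them, as were 2 of 12 for the difference between auxin and vehicle; none of these changed direction. Counts in total reads with auxin, with vehicle and for their difference (106, 73 and 34) were 215, 146 and 65 with 31 libraries, 168, 144 and 97 with DESeq2, 36, 27 and 2 with all 32 libraries, and 863 (370 higher, 493 lower), 903 (557 higher, 346 lower) and 490 (141 higher, 349 lower) when the axis within groups entered as a covariate. The axis came from these same counts, so counts with it as a covariate are raised by construction. With only the 8 compared libraries the vehicle count was 13. Leaving out 1 library gave 55 to 183 with auxin, 23 to 351 with vehicle and 5 to 69 for the difference. With auxin the count was 55 without parental auxin replicate 1, 66 without parental auxin replicate 2, 64 without tagged auxin replicate 2, 66 without tagged auxin replicate 4 and 183 without parental vehicle replicate 2. The vehicle count was 351 without parental vehicle replicate 3.

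Labelled reads with auxin (17) gave 8 with all 32 libraries, 33 with the 8 compared, 9 with transcripts summed, 76 with the axis and 8 to 27 with 1 library left out. With vehicle (2) they gave 10 with 31 libraries, 9 with DESeq2, 1 with all 32, 4 with the stricter filter, 8 with no filter, 1 with the 8 compared, 1 with transcripts summed, 47 with the axis and 1 to 17 with 1 library left out. For their difference (0) they gave 1 with transcripts summed, 15 with the axis and 0 to 4 with 1 library left out. Shares with auxin (2) gave 1 without centring and 2 to 3 with 1 library left out. Shares with vehicle (1) gave 0 with limma, 3 with no filter and 1 to 7 with 1 library left out, and for their difference (0) 1 with no filter and 0 to 1.

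Without parental stressed auxin replicate 1 the stressed counts with auxin and with vehicle were 68 and 654 for total reads (14 and 7 with it), 9 and 102 for labelled reads (1 and 5), and 3 and 7 for shares (5 and 2). The library-wide labelled difference ranged from -0.898 to -0.449 points with 1 library left out. That of conversions (-0.0105 points) ranged from -0.0329 to 0.0187 and was positive without tagged replicate 2 (0.0187), tagged replicate 4 (0.00151) or parental replicate 3 (0.0041). Counts of epithelial genes called higher with auxin, an alternative chosen after seeing the data, were 4 with all 32 libraries and 6 to 10 otherwise. The causes were not tested.

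Across genes, deviations of wells with equal replicate numbers correlated from -0.492 to 0.525 in total and from -0.186 to 0.152 in labelled reads, over all pairs of the 4 unstressed groups, and did not meet the bar of over 0.1 in every pair for treating the numbers as pairs. The labelled percentages of both auxin groups ran in 1 order of replicate number, a hint from the data and not from the design. With the replicate block the counts were 110, 76 and 37 for total reads, 21, 3 and 0 for labelled reads and 2, 1 and 0 for shares, and the library-wide differences were -0.674 and -0.0105 points (exact sign-flip p = 0.125 and 0.625). Several named genes had under 30 labelled reads per library, which limits the precision of their shares.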
